A study of Homo sapiens with 8 samples.

Results

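The 4 HOX gene clusters were examined in chromatin immunoprecipitation (ChIP-seq) peak lists from U-2 OS, an established human osteosarcoma cell line. The members were the 39 protein-coding genes, of 20033 in GENCODE release 44 on hg38, whose symbol is HOXA, HOXB, HOXC or HOXD followed by a number. There were 11 in the HOXA cluster on chromosome 7, 10 in HOXB on chromosome 17, 9 in HOXC on chromosome 12 and 9 in HOXD on chromosome 2. Each cluster was taken with 50 kb on either side of its outermost genes, and a peak belonged to a cluster when its summit lay in that window. Of 93526 peaks in the CTCF and Sp1 lists, 85 did.

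CTCF was pulled down in 2 replicate libraries from clone C32, which carries a FLAG and Halo tag at the endogenous CTCF gene, so its sites come from 1 clone. The description of the series instead calls these cells wild type. Sp1 was pulled down with 2 rabbit antibodies, 1 library each, beside 1 library with normal rabbit IgG. The genotype label of these libraries is a V5 and Halo knock-in at SP1, whereas their titles name the parental line, and neither label could be checked from peaks. All cells were fixed for 6 min with 1% formaldehyde, and no other treatment was given. CTCF and Sp1 came from different lines and sequencing runs, so a difference between the lists cannot be told apart from a difference between experiments. The lists hold no read counts. Depth is therefore unknown, and the values below are the fold enrichment at each summit as the authors' peak caller gave it.

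HOX genes encode homeodomain transcription factors that set position along the body axis. Genes with the same number in different clusters are paralogs that descend from duplication of an ancestral cluster, and all genes of a cluster are transcribed the same way, from group 13 towards group 1. CTCF is a zinc finger protein whose recognition sequence has a direction, and it is known to stop loop-extruding cohesin and to mark chromatin boundaries within HOX clusters. Sp1 is an activator that binds GC boxes in CpG-rich promoters.

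CTCF sites lay at corresponding places in different clusters in part of the intervals between neighbouring coding starts. Here and below, an interval named by its genes runs between their coding starts, so a site in it can lie inside a gene. The sequences at 13 sites are given first. Of these, 11 lie between coding starts of the same groups in 2 or 3 clusters and show how such sites compare. The site from HOXA9 to HOXA7 stands where HOXA lacks a group 8 gene. The site from HOXD8 to HOXD4 was the strongest by mean log2 fold. Each is 30 bases of hg38 read along the CTCF motif, with the 12 bases aligned to the motif core in capitals. The core used to build the motif model was CCANNAGNNGGC on either strand, where N is any base. The sites from HOXC9 to HOXC8, HOXC10 to HOXC9 and HOXD10 to HOXD9 did not pass with that model. They are placed by the rebuilt one described below. The strand after each interval is that of the motif. HOXA and HOXB lie on the minus strand and HOXC and HOXD on the plus strand, so a motif on the strand of its cluster points with transcription.
HOXA6 to HOXA5, chr7:27143907-27143936, minus: gccctgcctCCAGCGGGTGGCgctcgagtc
HOXB6 to HOXB5, chr17:48594032-48594061, minus: cgtcggtcgCCGGGAGGTGGCgcgctctgc
HOXC6 to HOXC5, chr12:54032733-54032762, plus: cccacatagGCACCAGGTGTCgctgtgggc
HOXA11 to HOXA10, chr7:27179897-27179926, minus: gcgcagccgCCACGAGATGGCgcacttccg
HOXC11 to HOXC10, chr12:53984965-53984994, plus: ccgaggcagCTGCTAGATGGCgctgttact
HOXD11 to HOXD10, chr2:176111386-176111415, plus: cctggagatCCACACGAGGGCgcgctcacg
HOXA9 to HOXA7, chr7:27161129-27161158, minus: aaacggcggCCAGCAGATGGCagtgtggct
HOXB9 to HOXB8, chr17:48618737-48618766, minus: gcagagcagCCGCTAGATGGCacccttgct
HOXC9 to HOXC8, chr12:54006113-54006142, plus: accaaatggACGCGAGGTGGCgctgttgct
HOXD9 to HOXD8, chr2:176127196-176127225, plus: ggcatttggCCACTAGAGAGCgctgttgct
HOXC10 to HOXC9, chr12:53989298-53989327, minus: tcttgctaaTCTCCAGGCGGCgctctcgcg
HOXD10 to HOXD9, chr2:176119083-176119112, minus: tcttactgaTCTCTAGGCGGCgctcgcggg
HOXD8 to HOXD4, chr2:176140636-176140665, plus: gcgcctcgtCCAGGAGGAGGCgctgtagga

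CTCF was dense in the clusters. Replicate 1 had 40 peaks in the 4 windows and replicate 2 had 32. All 32 replicate 2 peaks were matched to a replicate 1 summit within 200 bp, where 94.2% of all replicate 2 peaks were. This gave 32 sites of both replicates. Of these, 9 were in the HOXA window, 11 in HOXB, 5 in HOXC and 7 in HOXD. This was 3.47 sites per 100 kb, against 1.16 over the main chromosomes. When the genome was cut into windows of the same lengths, 1.82% held at least 9 sites (HOXA), 2.74% at least 11 (HOXB), 17.3% at least 5 (HOXC) and 4.72% at least 7 (HOXD). The HOXC count was thus not unusual for a stretch of its length.

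The sites were denser among the genes than beside them. From the first to the last HOX gene there were 26 sites, or 4.97 per 100 kb, and in the flanks 6, or 1.5 per 100 kb. Neighbouring sites inside the clusters were a median of 11.8 kb apart, against 42.1 kb over the genome. The cluster value counts only spacings between sites of the same gene span, which leaves out the longest stretches. The genome value has no such bound, so the contrast is partly one of measure. The median distance from a HOX start site to the nearest site was 4291 bp, against 14333 bp for all protein-coding genes. Within 10 kb of a site were 29 of 39 HOX start sites (74.4%) and 41.6% of all start sites.

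**Figure D1:**
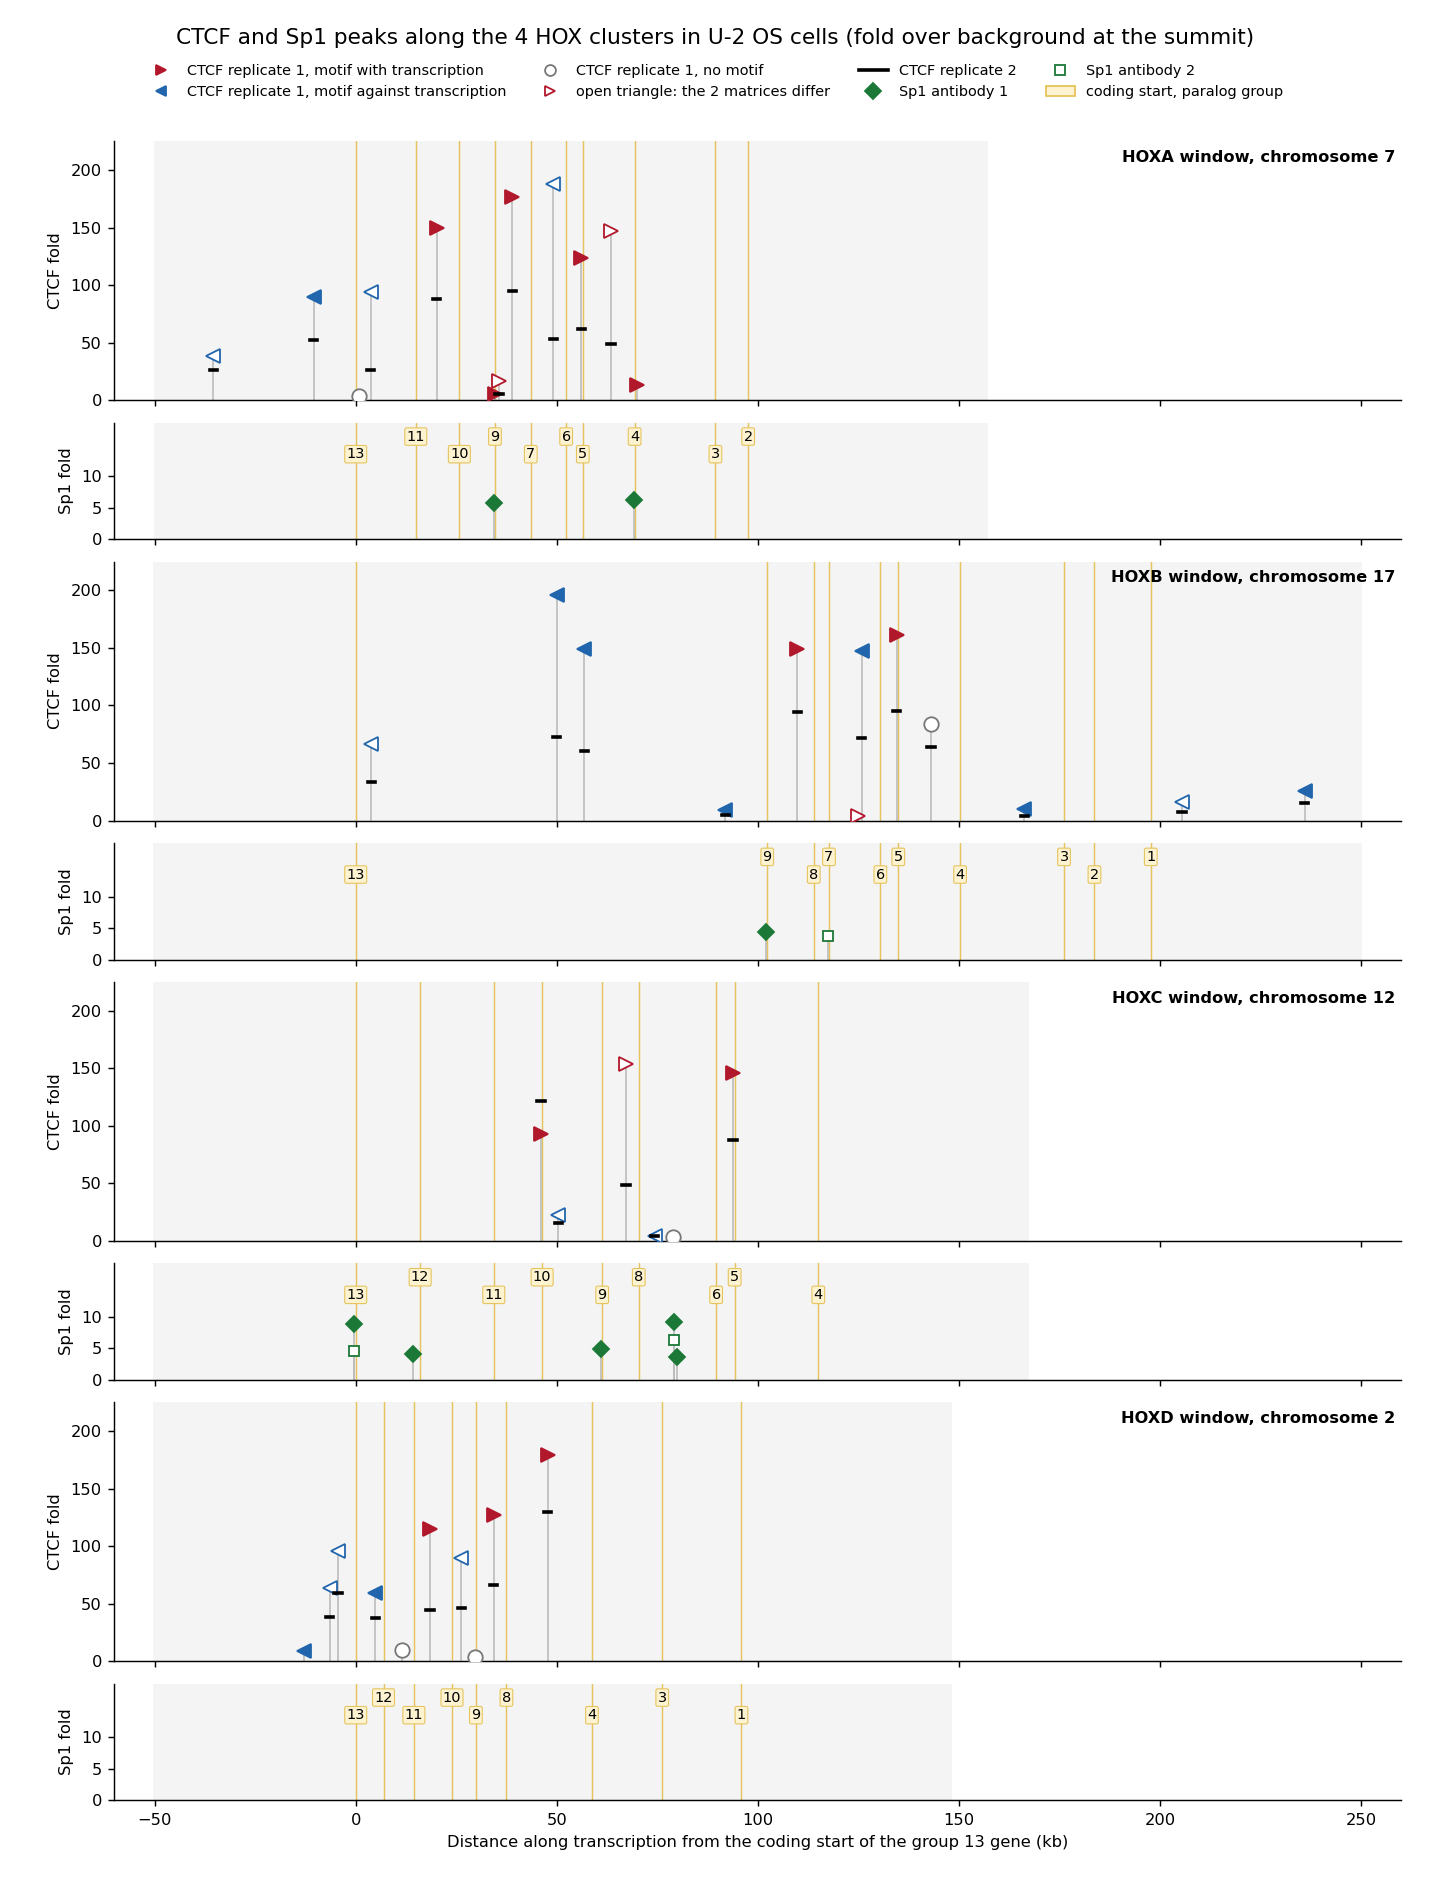
Fold enrichment of CTCF (upper rows) and Sp1 (lower rows, own axis) against distance along transcription in kb from the coding start of the group 13 gene, 1 pair of rows for each HOX cluster. Triangles and circles give CTCF replicate 1 and black bars replicate 2, red and blue give a motif with and against transcription, open triangles mark sites where the 2 motif matrices differ, yellow lines are HOX coding starts with their group number, and grey is the window of the cluster; CTCF sites of both replicates stop before the 3′ genes of HOXA and HOXD but are missing from the 5′ genes in HOXC, and the HOXD rows hold no Sp1 peak.

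In HOXA, 7 sites stood between coding starts. The site from HOXA13, a gene of limb and genital development, to HOXA11 lay inside HOXA13. It had 93.6-fold enrichment in replicate 1 and 26.2-fold in replicate 2. The site between HOXA11 and HOXA10, which pattern limb and uterus, had 150.0 and 87.7. Between HOXA9, a regulator of blood progenitors, and HOXA7 there was a weak site (16.8 and 5.58) and a strong one (176 and 94.9). The site between HOXA7 and HOXA6 had 188 and 53.4, that between HOXA6 and HOXA5 had 123 and 61.5, and that between HOXA5 and HOXA4 had 147 and 48.5. All but the weak site were at 93.6-fold or above in replicate 1, and none of both replicates followed the last one in the window.

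In HOXB, 9 sites stood between the first and the last gene. The 102 kb between HOXB13 and HOXB9 held 4 of them, with 66.4, 196, 149 and 8.99-fold enrichment in replicate 1 and 33.5, 73.0, 60.3 and 4.67 in replicate 2. The 196-fold site was the strongest in replicate 1 of all 32. The sites from HOXB9 to HOXB8 (149 and 94.0), from HOXB7 to HOXB6 (148 and 71.6) and from HOXB6 to HOXB5 (161 and 95.1) were of like strength. The site from HOXB5 to HOXB4 had 83.7 and 63.5. The site from HOXB4 to HOXB3, the most 3′ between coding starts of any cluster, was weak at 9.84 and 4.25.

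In HOXC, 5 sites stood between coding starts, all after HOXC11. The site from HOXC11 to HOXC10 had 92.5-fold enrichment in replicate 1 and 121 in replicate 2, and it was the only one of the 32 that was higher in replicate 2. Over the genome 2.69% of sites were higher in replicate 2, so a count of 1 in 32 was not unusual. The log2 ratio of replicate 2 to replicate 1 at this HOXC site was 0.39, a value that 0.464% of all sites reached. The site from HOXC10 to HOXC9 had 22.9 and 15.1, and the site from HOXC9 to HOXC8 had 154 and 48.4. The site from HOXC8 to HOXC6 was the weakest of all, with 3.99 and 3.80, and that from HOXC6 to HOXC5 had 146 and 88.1. Strong and weak sites therefore alternated along this cluster.

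In HOXD, which patterns the limb and genital bud, 5 sites stood between coding starts. They lay from HOXD13 to HOXD12 (59.7 and 37.2), from HOXD11 to HOXD10 (115 and 44.5), from HOXD10 to HOXD9 (89.5 and 46.1), from HOXD9 to HOXD8 (127 and 66.3) and from HOXD8 to HOXD4 (179 and 130). The last was the strongest of the 32 by mean log2 fold, at percentile 98.98 of all sites. It was also the last of the window: no site followed in the 100.3 kb up to the window's end, a stretch that holds HOXD4, HOXD3 and HOXD1. A stretch of 96.1 kb without a site lay on the other side of HOXC, before the site from HOXC11 to HOXC10, and holds HOXC13, HOXC12 and HOXC11. Both stretches end at a window edge and include the 50 kb flank, so their lengths depend on the window, and the next site beyond is not given. Over the genome the upper quartile of the distance between neighbouring sites was 102.8 kb, so stretches of this length were not unusual.

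The flanks held 6 sites, or 1.5 per 100 kb, which was fewer than among the genes but not below the 1.16 over the main chromosomes. The HOXA flank before HOXA13 held 2, with 89.7 and 38.6-fold enrichment in replicate 1 and 51.9 and 26.0 in replicate 2. The HOXD flank before HOXD13 held 2, with 96.1 and 63.9 in replicate 1 and 59.0 and 38.6 in replicate 2. In HOXB the flank with sites was the one after HOXB1, with 25.7 and 16.2 in replicate 1 and 15.6 and 7.19 in replicate 2. No site lay in the HOXC flanks.

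The 35 intervals between neighbouring coding starts showed where the sites gather. In all, 22 held a site, which was 6 of 10 in HOXA, 6 of 9 in HOXB, 5 of 8 in HOXC and 5 of 8 in HOXD. Of the 27 intervals that end at a gene of group 4 or higher, 21 did (77.8%), and of the 8 that end at group 3 or lower, 1 did (12.5%). The median length was 10.8 kb in the former class and 15.7 kb in the latter, and over all classes it was 11.2 kb for the 22 intervals with a site and 14.0 kb for the 13 without. The density was 6.36 sites per 100 kb in the former class and 0.837 in the latter, against 1.16 over the main chromosomes. The cut between group 4 and group 3 was not set beforehand, so the contrast of the classes is a description only. Group 1 to 3 genes act in the hindbrain and the most anterior trunk. HOXC has lost its group 1 to 3 genes, and there the interval from HOXC5 to HOXC4 was empty too. In the HOXA window no site of both replicates lay on the 3′ side of the one between HOXA5 and HOXA4.

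**Figure D2:**
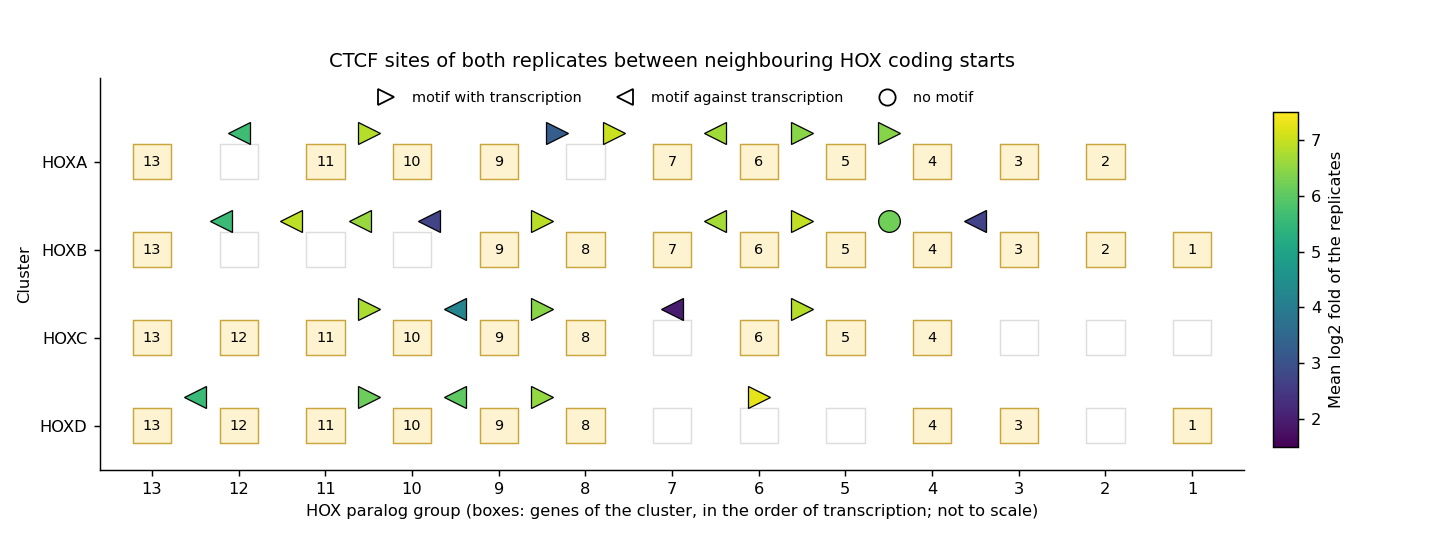
CTCF sites of both replicates between HOX coding starts, with the paralog group on the horizontal axis (13 to 1, along transcription, not to scale) and 1 row for each cluster. Boxes are genes, empty boxes are genes the cluster lacks, triangles give the direction of the motif from the first matrix or, where only that passes, the rebuilt one, and colour gives the mean log2 fold; sites from group 11 to 10 occur in HOXA, HOXC and HOXD and from group 6 to 5 in HOXA, HOXB and HOXC, all with transcription.

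Of 11 intervals between the same 2 groups that at least 2 clusters have, 4 held a site in every such cluster, 4 in some and 3 in none. In all, 17 of the 28 intervals at these places held a site, close to the 22 of 35 over all intervals, so the number of shared places is given as a description only. From group 6 to group 5 a site lay in each of the 3 clusters that have a group 5 gene, and it lay just upstream of the gene: 258 bp before the start site of HOXA5, 282 bp before HOXB5 and 319 bp before HOXC5. Group 5 genes pattern the trunk, and HOXA5 is known for lung development. The fold enrichment there was 123, 161 and 146 in replicate 1 and 61.5, 95.1 and 88.1 in replicate 2, so the ranges of these 3 sites were narrow. From group 11 to group 10 a site lay in HOXA, HOXC and HOXD, the 3 clusters with both genes, at 5601 bp before the start site of HOXA10, 175 bp before HOXC10 and 5396 bp before HOXD10. From group 9 to group 8 a site lay in HOXB, HOXC and HOXD, at 3479, 2876 and 2514 bp before the group 8 gene, and HOXA, which lacks that gene, had its 176-fold site from HOXA9 to HOXA7. From group 7 to 6 both clusters with that interval, HOXA and HOXB, had a site. The places with a site in some clusters were from group 10 to 9 (HOXC and HOXD but not HOXA), from 5 to 4 (HOXA and HOXB but not HOXC), from 13 to 12 (HOXD but not HOXC) and from 4 to 3 (HOXB but not HOXA or HOXD).

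Motifs at shared places pointed the same way. Motifs were scored within 50 bp of the summit by a matrix of 20 columns built from 9592 sites outside the windows that hold the exact core, and a score passed when 5% of windows 2 kb to the side reached it. With this matrix, 8 of 8 pairs of sites of different clusters at the same place had the same direction, against 54 of 120 other pairs (45.0%). Since that matrix penalises any change in the 8 fixed letters, it was rebuilt from the best match at 30967 sites outside the windows, a choice made after seeing the data. With the rebuilt matrix the counts were 10 of 10 and 73 of 167 (43.7%). Pairs share sites and are not independent, so no test was made. The sites from group 6 to 5 and from 11 to 10 pointed with transcription with both matrices. From 9 to 8 the HOXB and HOXD sites did so with both, and the HOXC site passed with the rebuilt matrix only. Both sites from 10 to 9 passed with the rebuilt matrix only and pointed against transcription. From 7 to 6 both sites pointed against it with the exact-core matrix, but the HOXA site did not pass with the rebuilt one.

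Shared bases depended in part on the matrix. With the exact-core matrix, pairs at the same place had a median of 16 of 30 bases in common (15 to 19) and other pairs of different clusters 13 (6 to 21), and outside the core, where 18 bases remain, the medians were 8 (7 to 10) and 6 (0 to 11). The closest pairs were then not at the same place: the site from HOXB9 to HOXB8 had 21 bases in common with the sites from HOXA11 to HOXA10 and from HOXC11 to HOXC10. With the rebuilt matrix the medians were 16.5 (15 to 25) and 13 (8 to 21), and outside the core 8.5 (7 to 14) and 6 (1 to 11). The ranges overlapped with either matrix. With the rebuilt matrix the closest pair was HOXC10 to HOXC9 and HOXD10 to HOXD9, with 25 of 30 identical and 14 of 18 outside the core. Both summits of this pair lay in coding exons, of HOXC10 and of HOXD10. Whether likeness of the coding sequence of these paralogs accounts for the identity was not tested. The pair from HOXC9 to HOXC8 and HOXD9 to HOXD8 had 20 of 30 and also 14 of 18. The 3 sites before HOXA5, HOXB5 and HOXC5 were less alike, with 15 or 16 of 30.

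The CTCF motif scored lower in the clusters. With the exact-core matrix, 21 of 32 HOX sites passed (65.6%, 95% Wilson interval 48.3 to 79.6%), against 80.2% of sites elsewhere. The exact core stood at 4 HOX sites (12.5%, 4.97 to 28.1%), namely from HOXA11 to HOXA10, from HOXA9 to HOXA7, from HOXD13 to HOXD12 and from HOXD8 to HOXD4, and at 28.4% of sites elsewhere. With the rebuilt matrix the shares came close to each other, 28 of 32 (87.5%, 71.9 to 95.03%) and 91.6%, while the median score was 12.2 in the windows and 15.4 elsewhere. Over sites of all strengths the lower share thus depended on the matrix, and the lower score did not. Intervals cover counting error only. The 20 HOX sites in the top 25% of all sites by mean log2 fold held the exact core in 3 cases (15.0%, 5.24 to 36.0%), against 40.8% of equally ranked sites elsewhere, so these sites were strong with a core that departs from the exact one. Of these 20 HOX sites, 16 passed with the exact-core matrix (80.0%, 58.4 to 91.9%), against 91.2% of equally ranked sites elsewhere. With the rebuilt matrix 17 passed (85.0%, 64.0 to 94.8%), against 97.6%. Among strong sites the share was thus lower with both matrices, though 91.2% lies within its interval.

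The direction of the motifs varied along the clusters. With the exact-core matrix 12 of 21 motifs pointed with transcription, which was 5 of 7 in HOXA, 2 of 8 in HOXB, 2 of 2 in HOXC and 3 of 4 in HOXD. With the rebuilt matrix it was 11 of 28, or 3 of 6, 2 of 10, 3 of 5 and 3 of 7. With a score that 1% of control windows reach it was 8 of 9, so the share depended on the matrix and the score. Of the 22 motifs that the rebuilt matrix placed between the first and the last gene, 11 pointed with transcription (50%, 30.7 to 69.3%), and of 6 in the flanks none did (0%, up to 39.03%). These intervals overlap, as do those of the clusters, and no difference in direction was tested. In HOXA, HOXB and HOXD the motifs nearest to group 13 pointed against transcription, and some of those in HOXA and HOXD lay in the flank. Motifs further on pointed mostly with transcription in HOXA and HOXD and mostly against it in HOXB. In HOXA the rebuilt matrix gave 3 motifs against and then 3 with. In HOXD it gave 3 against, then 1 with, 1 against and 2 with. Both matrices placed the motif at the same base and strand in 17 of the 18 sites that passed with each.

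Few HOX start sites had CTCF directly on them. Within 1 kb of the start site of the canonical transcript, 4 of 39 HOX genes had a site of both replicates (10.3%, 4.06 to 23.6%), namely HOXA5, HOXB5, HOXC5 and HOXC10. The background was 15.4% of all protein-coding genes and 20.2% of those with a CpG-rich promoter, and both lie within the interval. A promoter counted as CpG-rich at a GC content of at least 55% and an observed to expected CpG ratio of at least 0.65 in 1 kb, and 27 of 39 HOX promoters met this. Replicate 1 alone had a peak at 8 HOX genes (20.5%), against 22.6% of all genes and 30.4% of the CpG-rich ones. Replicate 2 had one at 4 (10.3%), against 16.1% and 21.2%. Within 5 kb, a window that includes the former, it was 21 of 39 HOX genes (53.8%) against 29.6% of all genes.

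The 4 genes with a replicate 1 peak alone had weak peaks. HOXA4 had 13.2-fold enrichment at 559 bp after its start site and HOXA9 had 5.42 at 197 bp after it. HOXD9 had 3.76 at 232 bp before its start site. HOXA13 had 3.65 at 751 bp after it, a summit that lay 95 bp from the start of HOTTIP, a long noncoding RNA known to act on the 5′ HOXA genes. In all, 8 HOX peaks of replicate 1 had no partner in replicate 2, and with them 80.0% of the replicate 1 peaks in the windows were matched, against 79.5% of all. None was above 13.2-fold. Over the 4 lists together, 13 of 39 HOX genes had a peak within 1 kb of the start site and 26 had none, among them 8 of the 9 HOXD genes. The share of all protein-coding genes with a peak of any of the 4 lists is not given, so these counts are a description only. HOXA9 and HOXA4 were the 2 genes with a peak of both proteins, and there the CTCF peak was of replicate 1 alone.

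**Figure D3:**
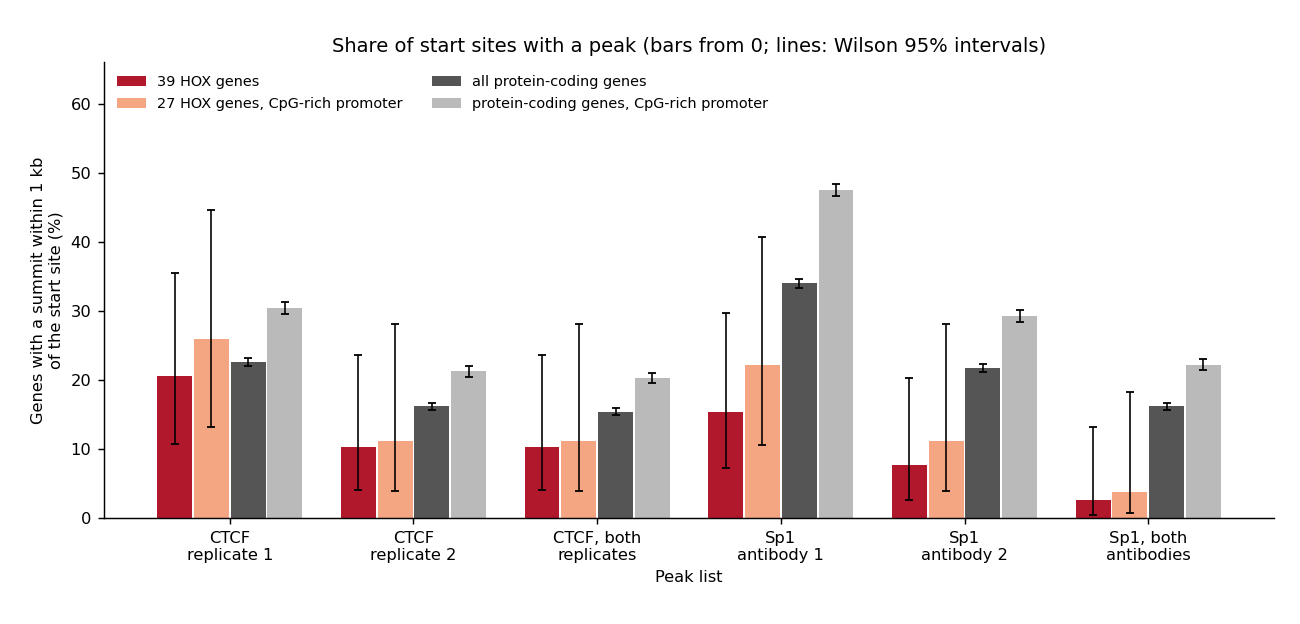
Percent of genes with a peak summit within 1 kb of the canonical start site for each peak list, with Wilson 95% intervals as lines; red and orange are HOX genes, all and those with a CpG-rich promoter, and dark and light grey are the same for protein-coding genes. The bars for the 39 HOX genes are lower than those for all protein-coding genes in every list, from 20.5% against 22.6% (CTCF replicate 1) to 2.56% against 16.2% (Sp1 of both antibodies).

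Sp1 peaks were few at HOX genes. Antibody 1 had 9 peaks in the windows, 3 in HOXA, 1 in HOXB, 5 in HOXC and 0 in HOXD. Antibody 2 had 4, of which 1 lay in HOXA, 1 in HOXB, 2 in HOXC and 0 in HOXD. No IgG peak lay in any window. Per 100 kb this was 0.975 and 0.434 peaks, against 0.295 and 0.202 over the main chromosomes, but the windows are rich in start sites. At start sites the HOX genes were below the background: antibody 1 had a peak at 6 of 39 (15.4%, 7.25 to 29.7%), against 34.0% of all protein-coding genes. Antibody 2 had one at 3 (7.69%, 2.65 to 20.3%), against 21.7%. For both antibodies at the same place it was 1 gene (2.56%, 0.454 to 13.2%), against 16.2%. All 3 background shares lie above the interval. The intervals here and in the next paragraph treat the genes as independent, but the genes are neighbours within 4 clusters. They may therefore be too narrow, and the comparison is a description only.

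The gap was also present among CpG-rich promoters and promoters with a GC box. Among the 27 HOX genes with a CpG-rich promoter antibody 1 had 6 (22.2%, 10.6 to 40.8%), against 47.5% of all CpG-rich promoters. Antibody 2 had 3 (11.1%, 3.85 to 28.1%), against 29.2%, and both had 1, against 22.2%. A GC box, GGGCGG on either strand, stood within 500 bp of the start site in 32 of 39 HOX genes (82.1%) and in 76.8% of all. Of those 32 genes, antibody 1 had a peak at 6 (18.8%), against 42.2% of all genes with a GC box, and antibody 2 at 3 (9.38%), against 26.5%. Each antibody has 1 library, so none of these shares has a replicate check.

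The HOX genes with Sp1 at the start site were spread over groups. Among the genes antibody 1 marked were HOXA4 (6.15-fold enrichment), HOXA9 (5.77), HOXB9 (4.31), HOXC9 (4.97) and HOXC13 (8.89), a gene of hair and nail. Group 9 therefore had a peak in 3 of its 4 clusters, with HOXD9 the exception. Among those antibody 2 marked were HOXB7 (3.81) and HOXC13 (4.55). HOXC13 was the gene where the summits of the antibodies were matched, 25 bp apart, at 301 and 276 bp before the start site.

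The other Sp1 peaks lay in HOXC. The strongest of all was at chr12:54018096, in introns of the long transcripts of HOXC4 and HOXC6, with 9.15-fold enrichment for antibody 1 and 6.27 for antibody 2 at 77 bp distance. A further antibody 1 peak lay next to it (3.59), and 1 lay 1840 bp before the start site of HOXC12 (4.10). All were modest within their lists. The median in the windows was 5.23 for antibody 1 and 4.18 for antibody 2, against 7.78 and 6.80 over all peaks, and the strongest was at percentile 60.3 of its list.

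No Sp1 peak was found at a CTCF site of both replicates. Of the 13 Sp1 peaks, 0 lay within 200 bp of a CTCF site of both replicates, which allows a share of up to 23.1%, and the share over all Sp1 peaks was 10.3%. The difference was therefore not detectable with 13 peaks. The nearest approach was at HOXA9, at 1197 bp. The strongest Sp1 peaks, in HOXC, lay 209 and 132 bp from a CTCF peak of replicate 1 alone (3.35-fold). A GC box stood within 50 bp of the summit in 4 of 9 antibody 1 peaks (44.4%, 18.9 to 73.3%), against 53.1% of all, and in 1 of 4 antibody 2 peaks, against 37.0%.

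The replicates placed the HOX sites alike. Summits of the 32 sites lay a median of 3.5 bp apart, against 8 bp over all sites, and at most 35 bp. The median fold enrichment was 94.9 in replicate 1 (3.99 to 196) and 50.2 in replicate 2 (3.80 to 130), against 41.7 and 21.8 over all sites. The median log2 ratio of replicate 2 to replicate 1 was -0.92 (SD 0.49, n = 32), against -0.89 over all sites, so the lower values of replicate 2 were not particular to the clusters. By mean log2 fold, 20 of 32 HOX sites (62.5%) were in the top 25% of all sites. Whether the copy number of each cluster in this line plays a part in these values was not tested.

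**Figure D4:**
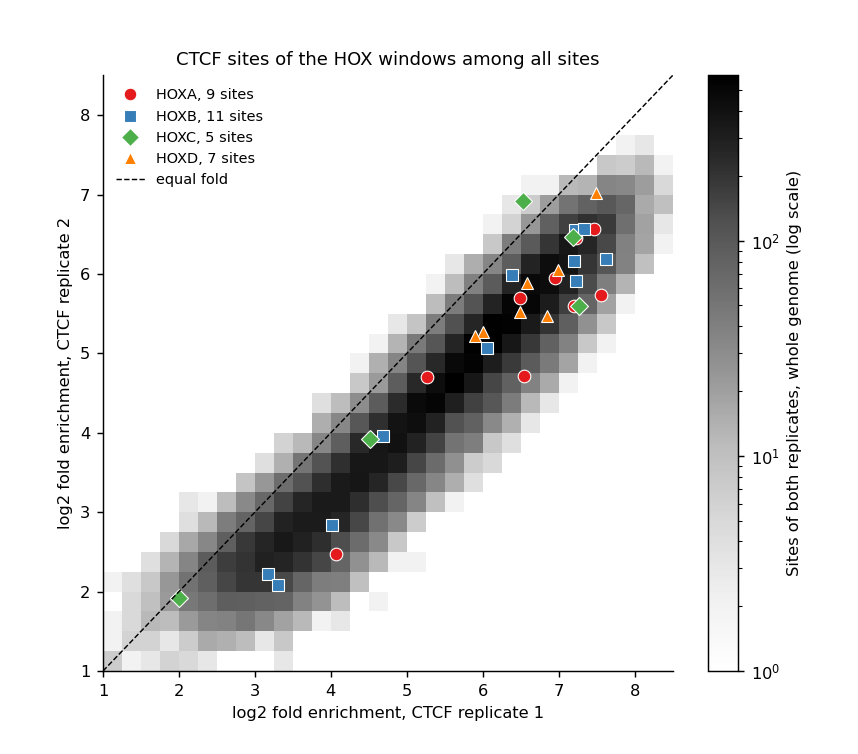
Log2 fold enrichment of CTCF in replicate 1 (horizontal) and replicate 2 (vertical) for the 32 HOX sites, coloured by cluster, over all sites of both replicates in the genome (grey, log scale of counts). All but 1 HOX site lie below the dashed line of equal fold, and the exception is the HOXC10 site with 92.5 and 121.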

How the data were processed

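ChIP-seq peaks were taken from 5 deposited lists (CTCF replicates 1 and 2, Sp1 antibodies 1 and 2, IgG). Per the labels, the authors used cutadapt 2.6, Bowtie2 2.4.5, SAMtools 1.15.1, deepTools 3.5.4, MACS2 2.2.7.1 and bedtools 2.27.1 on the build hg38, with no role stated for each. The methods of the study name Bowtie2 for alignment, MACS for peak calling, removal of duplicates and other Bowtie2 and samtools versions. They describe merged controls, no local background model and a liberal p-value limit for 1 round of calling. Whether this holds for each deposited list is not stated. In the deposited lists the fold enrichment is a linear ratio, the p-value and q-value of the summit are on a −log10 scale, the score is derived from the −log10 q, and a further column gives the summit offset. Each list ended at a −log10 q between 1.30 and 1.43. The score was not used. A fold depends on depth and on the control, and weak sites are lost first from a shallow library.

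Summits were placed on GENCODE 44 with Python 3.11.15, numpy 2.4.6 and pysam 0.24.0, and figures were drawn with matplotlib 3.10.9. Replicate summits that were mutually nearest and within 200 bp made 1 site, at the replicate 1 summit. Sites were placed between the coding starts of canonical transcripts, a choice made with the values in view, as was the definition of a shared place by the group numbers on both sides. All 39 genes were accounted for. Named were the genes with a peak within 1 kb of the start site, the sites between coding starts, the 2 strongest flank sites per cluster and the strongest Sp1 peaks. The matching and motif steps were tested on simulated data. No p-value was computed, since peaks are not replicates and each Sp1 antibody has 1 library. The members, lists and rules were chosen with earlier results of these data known. The 3 input libraries were not used here. Results at some named genes, 1 of them a HOX gene that is also left out of the figures, are not reported here.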

Additional observations from a re-analysis of the deposited data

How the results depend on the processing

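Of 71 values recomputed under an alternative, 59 stayed within the range set for them and 12 did not. The count of 32 CTCF sites of both replicates ranged from 26 (no flank) to 36 (flank of 100 kb), and from 32 to 40 when either replicate was used alone. At a −log10 q of at least 3, antibody 2 kept 2 of 4 peaks in the windows and 1 of 3 start sites. HOX start sites with CTCF rose from 4 to 21 within 5 kb and to 7 with all annotated transcripts (24.0% of all genes), and lay between 4 and 8 with a replicate left out. The motif share was 28.1% with a score that 1% of control windows reach, 12.5% with the exact core and 87.5% with the rebuilt matrix, an alternative chosen after the data were seen, and lay between 60% and 65.6% with a replicate left out. Motifs with transcription numbered 3 of 4 with the exact core, 8 of 9 (88.9%) at the 1% score, 11 of 28 (39.3%) with the rebuilt matrix and 12 to 14 with a replicate left out. The share of antibody 1 peaks with a GC box was 0% for the 9-letter box GGGGCGGGG and 77.8% within 100 bp. Sp1 peaks near CTCF numbered 0 without replicate 1 and 1 without replicate 2. The cause of these changes was not tested, apart from the wider or narrower criteria themselves. No paired analysis was possible because the Sp1 and IgG lists have no replicates and the numbers of the CTCF replicates recur only among input libraries, for which no peak list was used. Unknown read depth limits every absence of a peak.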

Other observations

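The proteins that act with HOX genes were read in the same lists, by a summit within 1 kb of the start site. Of 8 Trithorax group genes and H3K27 demethylases, which keep HOX genes active, antibody 1 had a peak at 7 and antibody 2 at 7, and 6 had matched summits. RBBP5, a subunit of the H3K4 methyltransferase complexes, had 12.7-fold enrichment for antibody 1 and 104 for antibody 2. KMT2B, the methyltransferase of such a complex, had 8.62 and 8.19, with CTCF at 151 and 67.9. KDM6A was the gene of the list with neither Sp1 peak. Of 14 Polycomb genes, which keep HOX genes silent, antibody 1 had a peak at 7 and antibody 2 at 2, and 4 genes, among them EZH2, SUZ12 and RNF2, had no peak of any list. CBX8 had the strongest Sp1 peaks of this list (22.5 and 9.09). Of 9 TALE homeobox cofactors antibody 1 had a peak at 5, and MEIS1 had peaks of both antibodies (9.03 and 7.503). Of 8 linked and ParaHox homeobox genes it had 1, at GSX2 (3.60), and EVX1 and EVX2, which lie next to HOXA13 and HOXD13, had no peak of any list. The counts of each antibody stand beside 34.0% of all protein-coding genes for antibody 1 and 21.7% for antibody 2. The share of all genes without a peak of any list is not given, so the genes without one are named as a description only.

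Long noncoding RNA genes of the windows shared some of the HOX sites. The CTCF site before HOXC10 lay 133 bp from the start of HOXC-AS3, and the site between HOXB7 and HOXB6 lay 252 bp from that of HOXB-AS3. The Sp1 peak of antibody 1 at HOXC9 lay 57 bp from the start of HOXC-AS1. The 4 lncRNA genes of the HOXD window had no peak of any list within 1 kb of the start site. In the HOXA, HOXB and HOXC windows, with 13, 8 and 10 lncRNA genes, no single list marked more than 2. The share over all lncRNA genes is not given, so these counts are a description only.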
